A study of Mus musculus with 13 samples.

Results

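Endocardial cells line the inner surface of the heart, and here they were taken from single-cell RNA libraries of whole mouse hearts. Each cell is represented by a barcode and its RNA molecules by unique molecular identifiers (UMIs). A heart barcode was chosen by 6 conditions: at least 2000 UMIs and at least 500 detected genes, Tnnt2 below 1000 CPM (UMIs per 1000000 UMIs of the barcode), at least 3 UMIs of Pecam1, Cdh5 and Egfl7 together, at least 1 UMI of Npr3, and at most 1 UMI of Fabp4 and Cd36 together. Tnnt2 is a cardiomyocyte troponin, Pecam1, Cdh5 and Egfl7 are general endothelial genes, Npr3 is the clearance receptor for natriuretic peptides, and Fabp4 and Cd36 are fatty acid carriers of capillary endothelium. The rule selected 2471 barcodes, called endocardial barcodes below, out of 76191 barcodes of all libraries analysed here and 41586 of the heart libraries that reached both floors. They made up 2471 of the 4756 endothelial barcodes of the heart, and the 1988 endothelial barcodes without an Npr3 UMI served as the population to set them against. The levels of the 7 genes in the rule are therefore descriptions of the choice and carry no test.

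All hearts came from wild-type C57Bl/6J mice without a transgene or treatment, and the labels tell the groups apart by stage only. The sex of the embryos is not given in the labels, and levels of sex-linked genes differed between stages. Embryonic days E12.5, E14.5 and E16.5 each had 2 replicate libraries, and postnatal day 3 (P3) was present as 1 matrix that pooled 2 sample records. The matrix of E16.5 replicate 1 also pooled 2 records. Each stage was prepared in its own libraries, so stage and preparation cannot be told apart, and p-values measure the spread between these libraries only.

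The endocardium is a specialised endothelium that faces the blood on one side and the myocardium on the other. In the embryo it sends signals such as neuregulin to the growing heart muscle, and in the atrioventricular canal and outflow tract some of its cells undergo an endothelial-to-mesenchymal transition that gives rise to the cushions from which valves form. Between endocardium and myocardium lies the cardiac jelly, a matrix rich in hyaluronan that is cleared as the ventricular wall becomes compact. Coronary and capillary endothelium, which expands over the same days, expresses genes of fatty acid uptake and tight junctions that mark it off from the endocardium.

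The summed endocardial barcodes held 13990363 and 16160706 UMIs at E12.5, 4141701 and 2486884 UMIs at E14.5, 2751597 and 2051955 UMIs at E16.5 and 1215734 UMIs at P3. The median barcode held 18012 and 18275 UMIs at E12.5 and 9380 to 12354 at the later embryonic stages, so genes of low level rested on more UMIs at E12.5. Replicate libraries of a stage correlated with r = 0.994, 0.979 and 0.972 over 10593 genes at E12.5, E14.5 and E16.5, a description across genes that are not independent. An Npr3 UMI was found in 0.811% to 1.60% of cardiomyocyte barcodes at median depths of 10680 to 18569 UMIs, against 41.0% to 72.2% of all endothelial barcodes. A doublet caller marked 1.66% to 11.4% of the endocardial barcodes of a library, and 3 endocardial barcode sequences were shared between libraries.

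The endocardial share of endothelial barcodes was highest at E12.5. Endocardial barcodes numbered 672 and 807 at E12.5, which was 68.2% (95% interval 65.1% to 71.1%) and 70.8% (68.1% to 73.4%) of endothelial barcodes. At E14.5 they numbered 301 and 208, or 52.1% (47.9% to 56.2%) and 40.7% (36.4% to 45.1%). At E16.5 they numbered 211 and 184, or 45.2% (40.6% to 49.8%) and 42.8% (38.1% to 47.6%). At P3 they numbered 88, or 13.7% (11.1% to 16.6%), with 17.2% and 9.15% under the 2 barcode suffixes of the P3 matrix. These exact (Clopper-Pearson) intervals cover counting error only. Those of both E12.5 libraries lay above those of every later library, whereas the E16.5 shares lay between the 2 E14.5 shares. With 2 libraries a stage, the smallest two-sided exact permutation p is 0.333, so no test of the shares was made. Of all barcodes that reached the floors, endocardial barcodes were 13.2% and 11.9% in the E12.5 libraries, 5.96% and 4.82% in those of E14.5, 3.94% and 3.77% in those of E16.5 and 0.870% at P3, and both E12.5 libraries again stood above the rest.

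**Figure D1:**
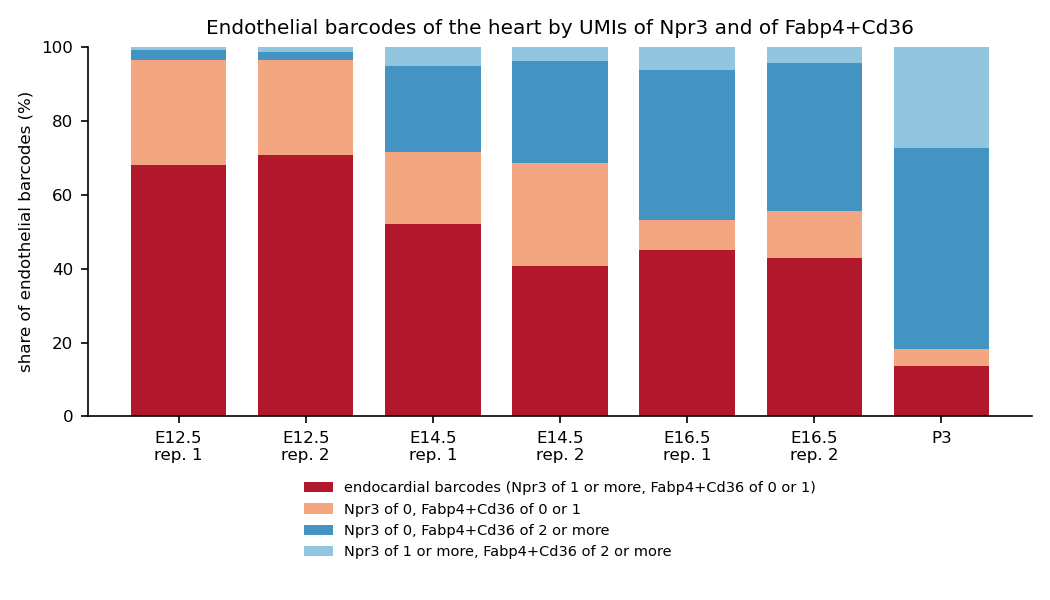
Stacked bars show, for each of the 7 heart libraries, the share in percent of endothelial barcodes in 4 classes set by UMIs of Npr3 and of Fabp4 and Cd36 together. The endocardial class falls from 68.2% and 70.8% at E12.5 to 13.7% at P3, and the class without Npr3 but with at least 2 UMIs of Fabp4 and Cd36 becomes the largest at P3.

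These shares moved after thinning to a common depth and without the Fabp4 and Cd36 limit. When every barcode was first thinned to 2000 UMIs and the rule then applied, the endocardial share was 26.5% and 26.9% in the E12.5 libraries, 25.7% and 16.9% in those of E14.5, 24.7% and 27.0% in those of E16.5 and 16.3% at P3, and the separation of E12.5 from E16.5 was gone. Thinning also left fewer endothelial barcodes: 211 of 986 in E12.5 replicate 1, 223 of 467 in E16.5 replicate 1 and 424 of 644 at P3. Endocardial barcodes without a Fabp4 or Cd36 UMI held Npr3 at 163 CPM in E12.5 replicate 1 and 472 CPM in E16.5 replicate 1. The thinned shares thus compare other barcodes, and the parts of depth and of Npr3 level were not tested. Without the limit on Fabp4 and Cd36 the P3 share was 41.0% and the E12.5 shares were 69.1% and 72.2%. At P3, 176 barcodes held both an Npr3 UMI and at least 2 UMIs of Fabp4 and Cd36, against 9 to 29 in the embryonic libraries. The limit also ran closer to the endocardial barcodes of P3, where 44 of them (50%) held 1 such UMI, against 4.17% and 4.21% at E12.5. Those 44 held Plvap at 436 CPM and Tmem100 at 251 CPM. The 29 P3 barcodes just outside, with Npr3 and 2 such UMIs, held Plvap at 449 CPM and Tmem100 at 247 CPM.

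In each of the 7 libraries, endocardial barcodes with a single Npr3 UMI held Plvap and Tmem100 at levels between those of barcodes with more Npr3 and those of barcodes just outside. In E12.5 replicate 1, the 161 endocardial barcodes with a single Npr3 UMI (24.0%) held Plvap at 325 CPM and Tmem100 at 79.7 CPM, whereas the 511 with more held Plvap at 415 CPM and Tmem100 at 121 CPM. Just outside, the 278 barcodes without Npr3 and with at most 1 UMI of Fabp4 and Cd36 held Plvap at 158 CPM and Tmem100 at 38.8 CPM. At the limit on Pecam1, Cdh5 and Egfl7, the 13 barcodes with exactly 3 UMIs held Plvap at 63.8 CPM and the fibrillar collagen Col3a1 at 334 CPM, and the 19 just outside, with 2 UMIs, held Plvap at 31.4 CPM and Col3a1 at 403 CPM. Col3a1 had no such order in every library: at this limit it stood at 914 CPM inside and 787 CPM just outside in E14.5 replicate 1, and at 978 and 119 CPM in E16.5 replicate 2.

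The label of endocardium was set beside genes that the rule had not used. The gene lists were chosen with earlier results of these data known, so this is a description and no independent check. Nfatc1, a transcription factor needed in endocardium for valve formation, stood in the endocardial sums at 44.1 and 51.5 CPM at E12.5, 83.3 and 82 CPM at E14.5, 62.9 and 67.7 CPM at E16.5 and 70.7 CPM at P3. In the Npr3 = 0 sums it stood at 66.7 and 63.5 CPM at E12.5, 57.4 and 54.8 CPM at E14.5, 36.1 and 27.9 CPM at E16.5 and 36.3 CPM at P3. Nfatc1 was therefore lower in endocardial than in Npr3 = 0 barcodes at E12.5 and higher in the other 5 libraries, and it did not mark the chosen set at every stage. Between 39.7% and 53.2% of the endocardial barcodes of a library held a Nfatc1 UMI, and 25.1% to 51.1% of the Npr3 = 0 barcodes.

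Plvap, which forms the diaphragms of endothelial caveolae and fenestrae, separated the populations in every library. It stood at 397 and 369 CPM at E12.5, 359 and 318 CPM at E14.5, 535 and 537 CPM at E16.5 and 408 CPM at P3 in endocardial sums. Plvap levels in Npr3 = 0 sums were 146 and 139.8 CPM at E12.5, 54.4 and 47.5 CPM at E14.5, 43.2 and 50 CPM at E16.5 and 14.4 CPM at P3. A Plvap UMI was present in 84.6% to 95.5% of endocardial barcodes. Tmem100, a transmembrane protein induced by BMP9 signalling in endothelium, stood at 113 and 119 CPM at E12.5, 126 and 155 CPM at E14.5, 279.5 and 257 CPM at E16.5 and 274 CPM at P3 in endocardial sums. Tmem100 levels in Npr3 = 0 sums were 33.4 and 38 CPM at E12.5, 23.3 and 20.9 CPM at E14.5, 29.7 and 41 CPM at E16.5 and 31.7 CPM at P3. Adgrg6, an adhesion G protein-coupled receptor, stood at 126 and 133 CPM at E12.5, 192 and 187 CPM at E14.5, 205 and 172 CPM at E16.5 and 124 CPM at P3 in endocardial sums. Adgrg6 levels in Npr3 = 0 sums were 34.6 and 36.2 CPM at E12.5, 14.8 and 10.7 CPM at E14.5, 3.8 and 7.14 CPM at E16.5 and 3.26 CPM at P3. No library of either population overlapped the other for these 3 genes. Of the 14 genes of the endocardial identity list other than Npr3, these 3 included, 11 reached 50 CPM in at least 4 of the 6 embryonic libraries of either population, and 7 of them were higher in endocardial barcodes in all 6 libraries (Ecm1, Adgrg6, Hand2, Plvap, Cgnl1, Tmem100 and Foxc1).

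**Figure D2:**
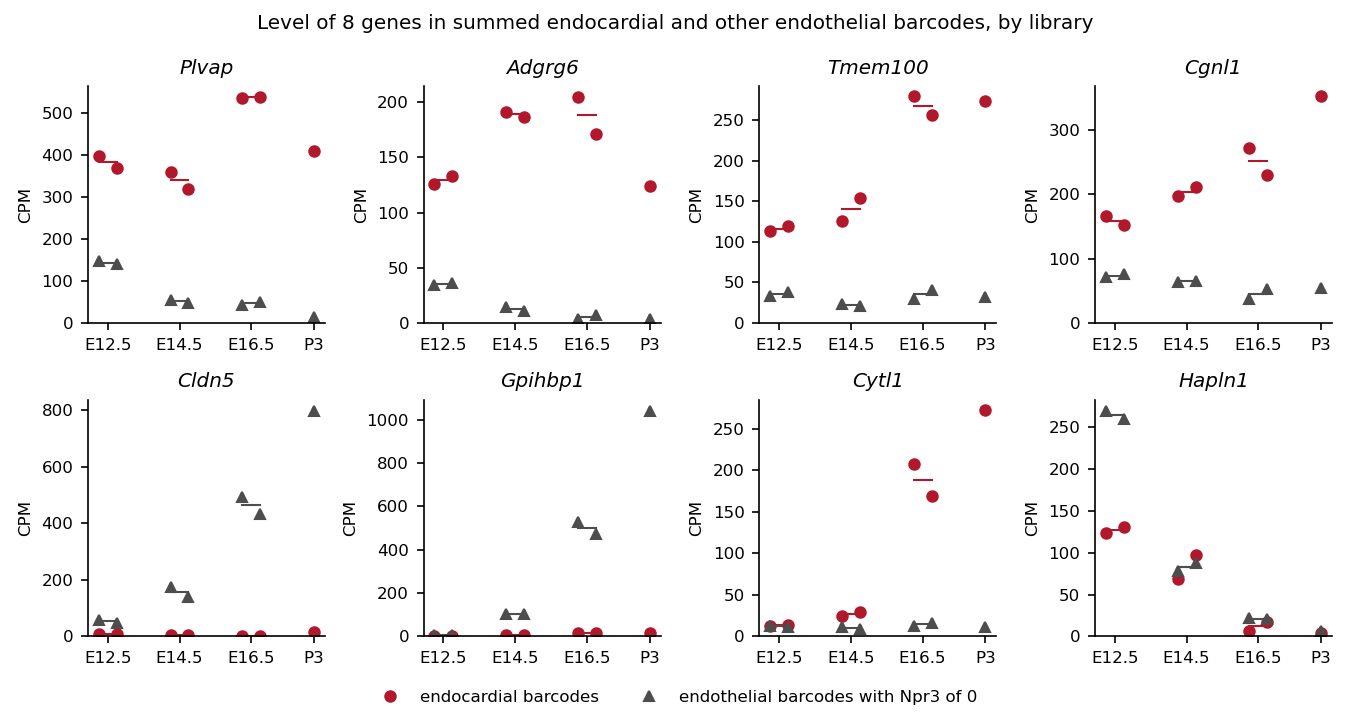
Points give the level in CPM of 8 genes in the summed endocardial barcodes (circles) and the summed endothelial barcodes without Npr3 (triangles) of each library, with a line at the mean of the 2 libraries of a stage. Plvap, Adgrg6, Tmem100 and Cgnl1 lie above the other population in all 7 libraries, Cldn5 and Gpihbp1 lie below it, Cytl1 parts from it by E16.5, and Hapln1 is lower in endocardial barcodes at E12.5 (124 and 131 against 270.1 and 259.6 CPM).

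Across all genes, 466 of 2439 with at least 50 CPM in 4 of 6 libraries of either population were higher in endocardial barcodes in all 6 embryonic libraries, which was 19.1%, and 773 were lower, which was 31.7%. The gate made this contrast, so the counts describe the chosen population and were not tested. Among the genes highest in endocardial barcodes by the median log2 ratio over 6 libraries, computed as log2(CPM + 1), were Adgrg6 (3.81), the collagen gene Col23a1 (3.18), the protocadherin gene Pcdh7 (2.89), the prohormone-processing gene Cpe (2.76), the apolipoprotein gene Apoc1 (2.73), Prr15 (2.65) and the homeobox gene Irx5 (2.64). The interferon-inducible relatives Mnda (3.35) and Ifi205 (3.23) were among them too, and as members of 1 gene cluster they may share reads. Ifi205 (mm10 chr1:174011998-174031810, minus strand) stood at 92.9 and 88.7 CPM at E12.5, 73.2 and 75.2 CPM at E14.5 and 67.2 and 44.8 CPM at E16.5 in endocardial sums. Its levels in Npr3 = 0 sums were 21.3 and 14.8 CPM at E12.5, 5.5 and 3.32 CPM at E14.5 and 1.19 and 4.97 CPM at E16.5.

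Of the 12 genes lowest in endocardial against Npr3 = 0 barcodes, 4 were on the list of coronary and capillary endothelium (Apln, Aplnr, Rgcc and Gpihbp1), whereas Fabp5 of that list was higher. Cldn5, the main claudin of endothelial tight junctions, stood at 8.01 and 6.81 CPM at E12.5, 4.59 and 4.83 CPM at E14.5, 1.82 and 2.44 CPM at E16.5 and 15.6 CPM at P3 in endocardial sums. Cldn5 levels in Npr3 = 0 sums were 59.4 and 47.1 CPM at E12.5, 175 and 139 CPM at E14.5, 494 and 434 CPM at E16.5 and 799 CPM at P3, a median log2 ratio of -4.79. Apln, the ligand of the apelin receptor, was at 0 in both endocardial libraries of E16.5. Other genes of this end were Rgcc (-5.19), Kcne3 (-4.48), Sparcl1 (-4.39) and Gpihbp1 (-3.66), which anchors lipoprotein lipase on capillaries. Glycolysis genes also lay on this side: all 8 glycolysis genes of at least 50 CPM were lower in endocardial barcodes in all 6 libraries, and the whole list summed to 2056 to 3304 CPM in endocardial and 3566 to 5812 CPM in Npr3 = 0 barcodes. Imprinted growth genes lay on the other side, with H19, Igf2, Cdkn1c, Plagl1, Dlk1 and Igf2r higher in all 6 libraries and Grb10 lower in all 6.

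The Npr3 = 0 barcodes were of mixed kind, and the mix changed with stage. At E12.5, 278 of 305 and 293 of 317 held at most 1 UMI of Fabp4 and Cd36, at E14.5 113 of 248 and 142 of 284, at E16.5 37 of 227 and 55 of 227, and at P3 30 of 380. Against those with at least 2 UMIs of Fabp4 and Cd36, endocardial barcodes held more Plvap, Nfatc1, Gata4 and Nrg1 in 6 of 6 libraries, with median log2 ratios of 3.83, 1.49, 2.94 and 3.78. Against those with at most 1 UMI, Plvap was still higher in 6 of 6 (1.49), but Nfatc1 (-0.51) and Gata4 (-0.44) were lower in 6 of 6. These Fabp4- and Cd36-poor barcodes without Npr3 carried genes of the valve cushions: Sox9, a transcription factor of valve mesenchyme, stood there at 82.4 and 112 CPM at E12.5, 35.9 and 42.4 CPM at E14.5 and 23.9 and 27.7 CPM at E16.5, against 7.93 and 8.6 CPM at E12.5, 2.17 and 10.1 CPM at E14.5 and 1.45 and 4.39 CPM at E16.5 in endocardial barcodes. Relative to them, endocardial barcodes were lower in 6 of 6 libraries for Sox9 (-3.28), Bmp4 (-2.77), Hey2 (-2.07), Twist1 (-1.78), Tbx20 (-1.77), Hapln1 (-1.54) and Vcan (-1.52). Against all Npr3 = 0 barcodes, 6 genes of the endothelial-to-mesenchymal transition list reached 50 CPM. Of these, 3 (Zeb2, Tgfbr3 and Zeb1) were higher in endocardial barcodes in all 6 libraries and 0 lower, against 19.1% and 31.7% of all genes. An Npr3 level of 0 thus did not mean that endocardial genes were absent.

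The change of the endocardial barcodes with stage was tested on the sums of each library with the quasi-likelihood test of edgeR, adjusted by the Benjamini-Hochberg method over 10593 genes. All adjusted p-values of stage comparisons are from this test, and a gene is called, or said to rise or fall, at an adjusted p under 0.05. Fold changes are on the log2 scale with standard errors, are scaled by the trimmed mean of M-values (TMM), and compare E16.5 with E12.5 where no other pair is named. The TMM factors placed fitted E16.5 against E12.5 changes 0.15 below the ratio of the CPM values, and the median fitted change over all genes was 0.02. P3 was used as 1 sample, since the 2 barcode suffixes of its matrix were not tied to the 2 sample records. It entered no test and its levels are descriptions. Between E12.5 and E14.5, 1684 genes rose (15.9% of those tested) and 2023 fell (19.1%); with DESeq2 the calls were 691 and 1315, which moved the rising share of calls from 45.43% to 34.45%. Between E14.5 and E16.5, 636 rose (6%) and 486 fell (4.59%). Over the whole span 2240 rose (21.1%) and 2445 fell (23.1%), among them 722 that rose and 543 that fell at least 2-fold. Single libraries weighed on the counts: the first comparison called 2041 genes without E14.5 replicate 1 and 2390 without E14.5 replicate 2, and the second 548 and 523 without each E14.5 library and 454 and 695 without each E16.5 library, against 3707 and 1122 in all.

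Cytl1, which encodes a small secreted cytokine-like protein (mm10 chr5:37735519-37739820, plus strand), stood at 12.8 and 13.9 CPM at E12.5, 25.1 and 28.9 CPM at E14.5, 208 and 169.6 CPM at E16.5 and 272 CPM at P3, and its rise came mainly after E14.5 (log2 fold change 3.68 ± 0.12, adjusted p = 8.8e-15 over the span). In Npr3 = 0 barcodes Cytl1 stood at 12.9 and 11.7 CPM at E12.5, 11 and 9.49 CPM at E14.5, 12.4 and 16.4 CPM at E16.5 and 11.8 CPM at P3. Col6a3, a chain of type VI collagen, stood at 3.79 and 4.64 CPM at E12.5, 13.5 and 9.65 CPM at E14.5, 98.5 and 81.4 CPM at E16.5 and 65.8 CPM at P3 (log2 fold change 4.27 ± 0.16, adjusted p = 5.6e-14). Ahsg, which encodes the serum glycoprotein fetuin-A, stood at 2.72 and 1.55 CPM at E12.5, 8.45 and 6.43 CPM at E14.5, 38.2 and 49.7 CPM at E16.5 and 299 CPM at P3 (log2 fold change 4.21 ± 0.23, adjusted p = 7.4e-12). Lyve1, a hyaluronan receptor best known from lymphatic endothelium, stood at 9.15 and 7.67 CPM at E12.5, 9.66 and 16.1 CPM at E14.5, 82.1 and 93.1 CPM at E16.5 and 131 CPM at P3 (log2 fold change 3.23 ± 0.16, adjusted p = 1.3e-12). Lyve1 was called downward in endocardial against all Npr3 = 0 barcodes in the interaction of population and stage described below. For these 4 genes the 2 E16.5 libraries lay above all 4 earlier libraries. The rule by which genes were named required no overlap between the stages compared, so this is no separate support.

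Further genes that rose were Slc45a3 (4.78 ± 0.25), the scavenging chemokine receptor gene Ackr4 (4.67 ± 0.29), Rassf9 (4.58 ± 0.20), the stress-responsive gene Ndrg1 (4.20 ± 0.23), Ndufa4l2 (3.67 ± 0.16), the histidine decarboxylase gene Hdc (3.63 ± 0.26) and Tmem158 (3.35 ± 0.17). Rassf9 stood at 1.5 and 1.79 CPM at E12.5, 17.4 and 13.7 CPM at E14.5 and 47.2 and 40.9 CPM at E16.5, so most of its rise on the log2 scale came by E14.5, whereas Ndufa4l2 stood at 6.58 and 5.63 CPM at E12.5, 6.28 and 11.7 CPM at E14.5 and 91.2 and 79.9 CPM at E16.5 and rose after E14.5 (3.36 ± 0.20). Tmem158 stood at 7.29 and 5.88 CPM at E12.5, 29 and 21.7 CPM at E14.5 and 63.2 and 86.8 CPM at E16.5 and at 214 CPM at P3. Hspa1a, a heat shock gene with a near-identical copy in Hspa1b, stood at 0.643 and 0.557 CPM at E12.5, 26.8 and 32.2 CPM at E14.5 and 16.7 and 28.3 CPM at E16.5 (log2 fold change 5.42 ± 0.28, adjusted p = 3.7e-11 for E14.5 against E12.5), so the whole of its rise lay between E12.5 and E14.5. Gm26870 met the rule for named genes (4.59 ± 0.51) but its 2 E16.5 libraries stood far apart at 16.4 and 65.3 CPM, and its change was 5.32 without E16.5 replicate 1 or without E12.5 replicate 1 and 3.36 without E16.5 replicate 2.

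Hmga2, a chromatin protein of dividing fetal cells (mm10 chr10:120361275-120476469, minus strand), stood at 84.4 and 82.4 CPM at E12.5, 40.3 and 37.4 CPM at E14.5, 6.18 and 6.33 CPM at E16.5 and 0.823 CPM at P3 (log2 fold change -3.88 ± 0.18, adjusted p = 6.6e-13). Hapln1, the link protein that holds hyaluronan and proteoglycans together (mm10 chr13:89539796-89611652, plus strand), stood at 124 and 131 CPM at E12.5, 69 and 97.7 CPM at E14.5, 6.91 and 17.1 CPM at E16.5 and 4.11 CPM at P3 (log2 fold change -3.64 ± 0.21, adjusted p = 3.1e-11). For both genes no E16.5 library reached the lowest earlier library, which the rule for named genes required. Without E16.5 replicate 2 the change of Hapln1 was -4.34. After thinning to 2000 UMIs that of Hmga2 was -5.75. The cholesterol synthesis genes Fdps (-2.31 ± 0.17) and Fdft1 (-2.31 ± 0.22) fell early: Fdps stood at 46.2 and 47 CPM at E12.5, 15 and 14.9 CPM at E14.5 and 11.3 and 9.26 CPM at E16.5. Others were Pcp4 (-3.56 ± 0.44), Cited1 (-2.76 ± 0.23), Asb4 (-2.66 ± 0.22), the serine synthesis gene Phgdh (-2.61 ± 0.30), the imprinted gene Nnat (-2.44 ± 0.18), Col26a1 (-2.24 ± 0.18), Basp1 (-2.23 ± 0.15) and Cd24a (-2.22 ± 0.19). The changes of Pcp4 and Cd24a were -4.33 and -2.83 without E16.5 replicate 2, and that of Pcp4 was -2.95 without E16.5 replicate 1. That of Asb4 was -3.71 with at least 2 Npr3 UMIs and -1.78 after thinning. In the Npr3 = 0 sums Hapln1 stood at 270.1 and 259.6 CPM at E12.5, 78.5 and 87.3 CPM at E14.5 and 21.6 and 20.8 CPM at E16.5, so that it was lower at E16.5 there too.

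**Figure D3:**
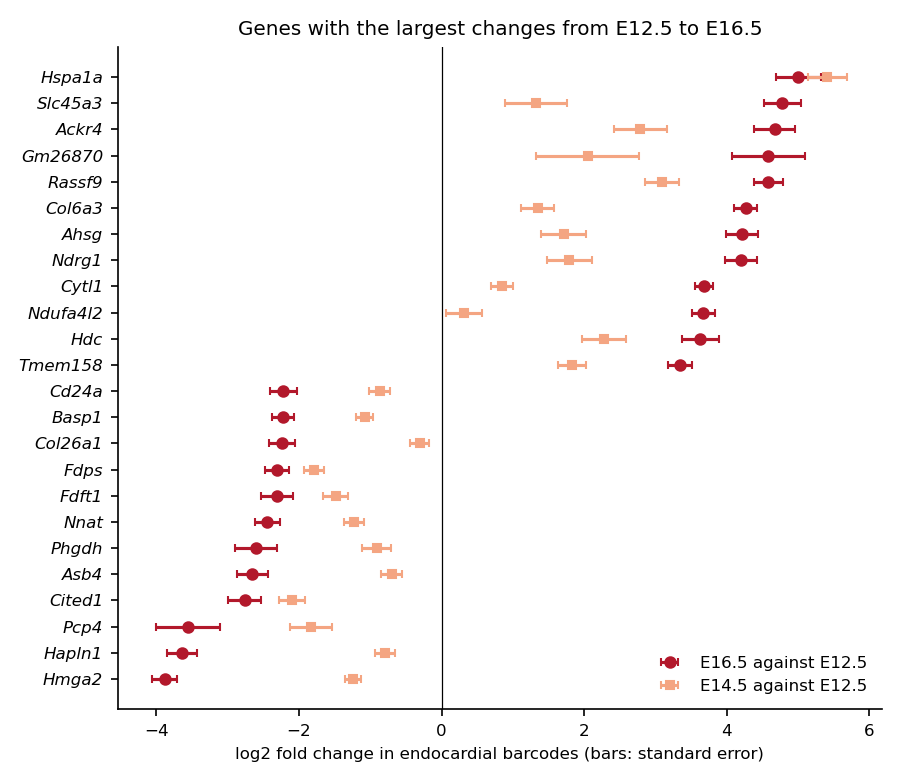
Points give the log2 fold change of 24 genes in the endocardial sums for E16.5 against E12.5 (circles) and E14.5 against E12.5 (squares), with bars for 1 standard error. The 12 rising genes run from 3.35 (Tmem158) to 5.01 (Hspa1a) and the 12 falling genes from -2.22 (Cd24a) to -3.88 (Hmga2) over the span, and Hspa1a had already reached its change by E14.5.

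Counts of list members called over the span stand against 21.1% of all tested genes that rose and 23.1% that fell. Of the 14 endocardial identity genes tested, 9 rose and 3 fell over the span, with a median log2 change of 0.33 against 0.02 over all genes, and the number that rose was 5 to 8 when any 1 library was left out. Beside Cytl1, the clearest rises were Tmem100 (log2 fold change 1.06 ± 0.10, adjusted p = 4e-08) and the forkhead gene Foxc1, which stood at 66.5 and 75.5 CPM at E12.5, 99.5 and 99.7 CPM at E14.5, 154 and 146 CPM at E16.5 and 209.7 CPM at P3 (log2 fold change 0.94 ± 0.10, adjusted p = 1.8e-07). Cgnl1, a cell junction protein, stood at 166 and 152 CPM at E12.5, 197 and 212 CPM at E14.5 and 273 and 230.5 CPM at E16.5 (log2 fold change 0.52 ± 0.10, adjusted p = 0.00024). For Tmem100, Foxc1 and Cgnl1 the E16.5 libraries lay above both E12.5 libraries. Gata4, a cardiac transcription factor, stood at 55.2 and 62.6 CPM at E12.5, 71.2 and 73.6 CPM at E14.5 and 52.3 and 70.7 CPM at E16.5 (log2 fold change -0.10 ± 0.13, adjusted p = 0.54), and its libraries overlapped between stages. Nfatc1 rose between E12.5 and E14.5 (log2 fold change 0.64 ± 0.11, adjusted p = 0.00011), which was not called after thinning each barcode to 2000 UMIs (adjusted p = 0.17). For Plvap the rise over the span (log2 fold change 0.34 ± 0.10, adjusted p = 0.011) was lost without E12.5 replicate 2 or without E16.5 replicate 1, where the adjusted p was 0.084 and 0.053, and when barcodes with RNA of other cells were left out (adjusted p = 0.076).

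Of 17 general endothelial genes 9 rose and 4 fell. Eng, the TGF-beta coreceptor endoglin, stood at 302 and 331 CPM at E12.5, 544 and 511 CPM at E14.5, 713 and 736 CPM at E16.5 and 983 CPM at P3 (log2 fold change 1.05 ± 0.10, adjusted p = 4.3e-08). Tek, the angiopoietin receptor, stood at 108 and 127 CPM at E12.5, 177 and 169.7 CPM at E14.5 and 220.2 and 224 CPM at E16.5 (log2 fold change 0.77 ± 0.09, adjusted p = 1.5e-06), and the transcription factor gene Sox7 also rose (1.28 ± 0.12). For Eng, Tek and Sox7 the 3 stages did not overlap. Sox17, a transcription factor of arterial endothelium, went the other way and stood at 4.93 and 5.94 CPM at E12.5, 2.66 and 3.22 CPM at E14.5, 0.363 and 0.487 CPM at E16.5 and 3.29 CPM at P3 (log2 fold change -3.79 ± 0.59, adjusted p = 2.5e-05), and Cldn5 fell as well (log2 fold change -1.96 ± 0.37, adjusted p = 0.0002). The E16.5 levels of Sox17 rest on very few UMIs, in sums of 2751597 and 2051955 UMIs, so the size of its fall is uncertain. The level of Cldn5 in the endocardial set thus went from low to lower, while it stood at 59.4 and 47.1 CPM at E12.5, 175 and 139 CPM at E14.5 and 494 and 434 CPM at E16.5 in the Npr3 = 0 sums.

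The 8 tested genes of coronary and capillary endothelium mostly stood at low levels. Of them 6 rose and 1 fell, and the highest level reached by Gpihbp1 in an embryonic library was 17.1 CPM, against 527.4 CPM in Npr3 = 0 barcodes. Gpihbp1 stood at 3.72 and 2.97 CPM at E12.5, 7.49 and 7.24 CPM at E14.5 and 17.1 and 17.1 CPM at E16.5 (log2 fold change 2.21 ± 0.23, adjusted p = 2.4e-07). Lpl, the lipase that Gpihbp1 binds, stood at 20.6 and 21.5 CPM at E12.5, 36.5 and 36.6 CPM at E14.5 and 44 and 53.1 CPM at E16.5 (log2 fold change 1.04 ± 0.13, adjusted p = 2.5e-06). Fabp5, a fatty acid carrier, was an exception in level and stood at 3380 and 2923 CPM at E12.5, 3381 and 3208 CPM at E14.5 and 5627 and 4852 CPM at E16.5 (log2 fold change 0.59 ± 0.10, adjusted p = 4.8e-05), above the Npr3 = 0 sums in every library. Of 7 venous and lymphatic genes 4 rose and none fell: Lyve1, the neuropilin gene Nrp2 (1.70 ± 0.16), the venous receptor gene Ephb4 (1.07 ± 0.11) and Nr2f2, a regulator of venous identity, which stood at 78.8 and 89.2 CPM at E12.5, 158 and 154 CPM at E14.5 and 138 and 154 CPM at E16.5. These rises were not particular to endocardial barcodes. Of 9 list genes in the interaction of population and stage described below, 0 differed upward and 6 downward, against 10.2% and 14% of all genes. The 6 were Flt4, Nrp2, Prox1, Lyve1, Reln and Mmrn1. Against Npr3 = 0 barcodes with at least 2 UMIs of Fabp4 and Cd36, 0 and 1 of 8 differed, and against those with at most 1 UMI 0 and 2 of 9. Of 8 arterial genes 3 rose and 4 fell, among the latter the connexin gene Gja4 (log2 fold change -0.70 ± 0.10, adjusted p = 1.3e-05), Cxcl12 (log2 fold change -2.31 ± 0.36, adjusted p = 2.5e-05) and Sox17.

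Signals that endocardium sends to the myocardium moved in both directions: of 19 ligand and ligand-processing genes tested, 6 rose and 6 fell, with a median log2 change of -0.11. Nrg1, which encodes the neuregulin that drives trabeculation (mm10 chr8:31814551-32884029, minus strand), stood at 26.2 and 28.9 CPM at E12.5, 27.3 and 33 CPM at E14.5, 31.6 and 23.9 CPM at E16.5 and 22.2 CPM at P3. Its change was not called (log2 fold change -0.11 ± 0.16, adjusted p = 0.6) and the 3 stages overlapped. Edn1, the precursor of endothelin 1, stood at 16.9 and 23.4 CPM at E12.5, 30.4 and 39.8 CPM at E14.5, 60.7 and 57.5 CPM at E16.5 and 134 CPM at P3 (log2 fold change 1.41 ± 0.16, adjusted p = 4e-07). Ece1, the enzyme that cleaves that precursor, stood at 247 and 292 CPM at E12.5, 369 and 374 CPM at E14.5, 535 and 534 CPM at E16.5 and 474 CPM at P3 (log2 fold change 0.84 ± 0.10, adjusted p = 1.2e-06). For both genes the 3 stages did not overlap, and the order was E12.5, E14.5, E16.5 from low to high.

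Igf2, an embryonic growth factor (mm10 chr7:142650766-142666816, minus strand), stood at 1173 and 1474 CPM at E12.5, 2008 and 2015 CPM at E14.5, 3467 and 3485 CPM at E16.5 and 6413 CPM at P3 (log2 fold change 1.25 ± 0.10, adjusted p = 3.3e-09). Igf1 was highest at E14.5 and stood at 146 and 150.3 CPM at E12.5, 245 and 250.1 CPM at E14.5, 129 and 126 CPM at E16.5 and 142 CPM at P3 (log2 fold change -0.95 ± 0.09, adjusted p = 7.3e-07 for E16.5 against E14.5). Wnt4 had the same shape, at 59.3 and 77 CPM at E12.5, 142 and 134 CPM at E14.5, 33.4 and 41.4 CPM at E16.5 and 28.8 CPM at P3 (log2 fold change -1.90 ± 0.15, adjusted p = 1.8e-08 for E16.5 against E14.5). For Igf1 and Wnt4 both E14.5 libraries lay above all 4 other embryonic libraries. Tgfb2, a TGF-beta ligand of the cushions, stood at 34.6 and 43.4 CPM at E12.5, 64 and 69.2 CPM at E14.5, 78.9 and 80.9 CPM at E16.5 and 73.2 CPM at P3 (log2 fold change 0.88 ± 0.12, adjusted p = 6.1e-06). Vegfc, a ligand of lymphatic growth, stood at 13.2 and 14.1 CPM at E12.5, 9.18 and 14.1 CPM at E14.5, 5.82 and 5.85 CPM at E16.5 and 6.58 CPM at P3 (log2 fold change -1.37 ± 0.26, adjusted p = 0.00019), and its change was -2.81 without barcodes holding RNA of other cells. Igf2, Igf2r and Ece1 were higher in endocardial than in Npr3 = 0 barcodes in all 6 libraries.

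**Figure D4:**
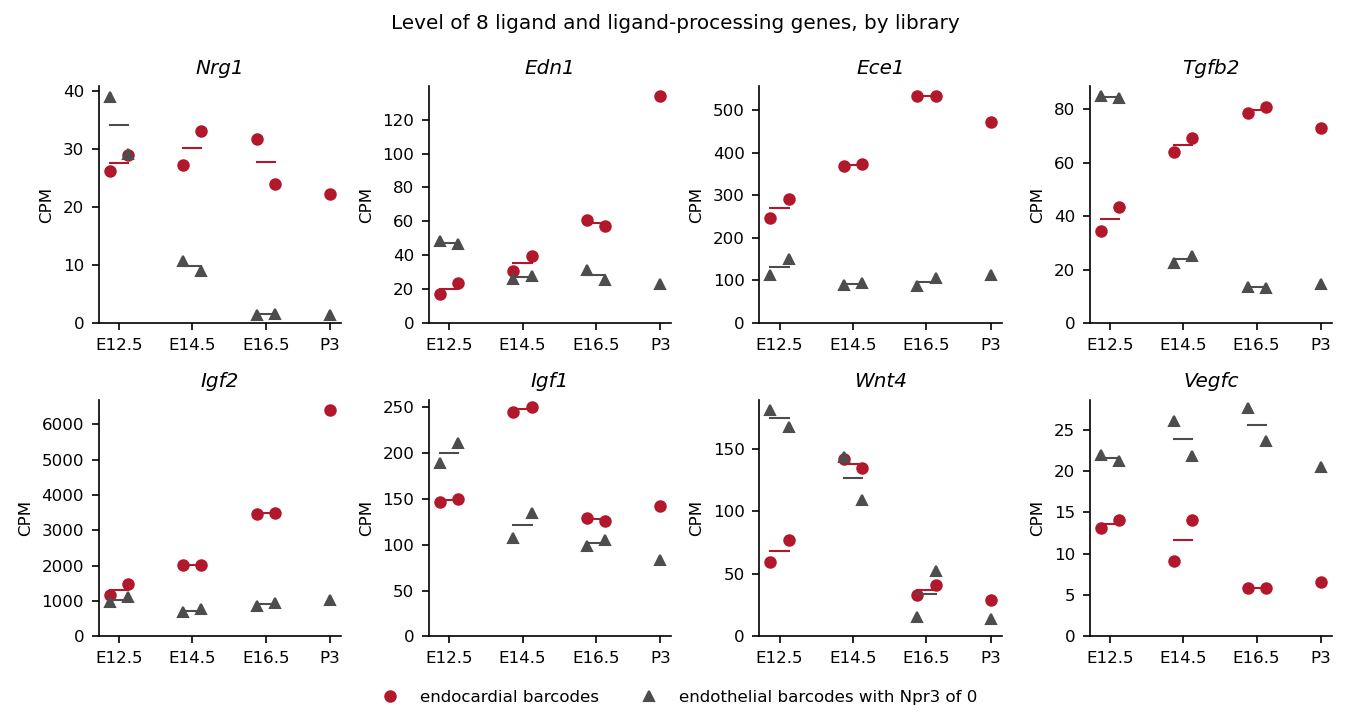
Points give the level in CPM of 8 ligand and ligand-processing genes in the summed endocardial barcodes (circles) and the summed endothelial barcodes without Npr3 (triangles) of each library, with a line at the mean of the 2 libraries of a stage. Nrg1 stays between 22.2 and 33.0 CPM in endocardial barcodes while it goes from 38.9 and 29.2 to 1.43 and 1.55 CPM in the others, Edn1, Ece1, Tgfb2 and Igf2 climb in endocardial barcodes, Igf1 and Wnt4 peak at E14.5, and Vegfc is lowest at E16.5.

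Of 21 tested receptors and targets of BMP and TGF-beta signalling, 11 were called higher, 1 lower and 9 not called (52.4% higher, against 21.1% of all genes, median 0.30). Between E14.5 and E16.5, 10 were higher and none lower, against 6% and 4.59% of all genes. Tgfbr2, the type II TGF-beta receptor, stood at 40.5 and 44.6 CPM at E12.5, 87.2 and 76.8 CPM at E14.5, 132 and 126 CPM at E16.5 and 169 CPM at P3 (log2 fold change 1.46 ± 0.11, adjusted p = 9.9e-10). Acvrl1, the endothelial type I receptor ALK1, stood at 4.15 and 4.02 CPM at E12.5, 7.73 and 6.03 CPM at E14.5 and 16.7 and 20 CPM at E16.5 (log2 fold change 2.00 ± 0.22, adjusted p = 4.5e-07). Bmpr2 (0.87 ± 0.11), the activin receptor gene Acvr1 (0.85 ± 0.13) and the inhibitory Smad genes Smad6 (0.57 ± 0.12) and Smad7 (1.19 ± 0.10) rose with them. Smad7 stood at 51.1 and 55.9 CPM at E12.5, 73.4 and 74.8 CPM at E14.5 and 139 and 131 CPM at E16.5. The receptor Tgfbr1 (log2 fold change 0.05 ± 0.16, adjusted p = 0.83) and the signal transducer Smad1 (log2 fold change -0.04 ± 0.14, adjusted p = 0.85) were not called. Set against Npr3 = 0 barcodes in the interaction of population and stage described below, 8 of the 21 differed upward and 4 downward. Those downward were Acvrl1, Acvr2a, Smad1 and Id1, and the shares over all genes were 10.2% and 14%.

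Among VEGF and angiopoietin receptors, 5 of 8 rose and 1 fell. Against Npr3 = 0 barcodes, 1 of the 8 (Tek) differed upward and 4 (Kdr, Flt4, Nrp1 and Nrp2) downward in the interaction described below. The shares over all genes were 10.2% and 14%. Flt1, the decoy VEGF receptor, stood at 149.5 and 159 CPM at E12.5, 232 and 229.6 CPM at E14.5 and 276 and 293 CPM at E16.5 (log2 fold change 0.73 ± 0.09, adjusted p = 9.2e-07). The coreceptor gene Nrp1 stood at 292 and 279 CPM at E12.5, 352 and 370.3 CPM at E14.5 and 472 and 406 CPM at E16.5 (log2 fold change 0.48 ± 0.10, adjusted p = 0.00084). Of 18 Notch pathway genes 6 rose (33.3%) and 2 fell, and 10 were not called. The receptor gene Notch1 stood at 110.4 and 114 CPM at E12.5, 159 and 141 CPM at E14.5 and 206 and 176 CPM at E16.5 (log2 fold change 0.63 ± 0.10, adjusted p = 3.3e-05) and Notch3 fell (log2 fold change -1.64 ± 0.36, adjusted p = 0.00087), whereas the target gene Hes1 (log2 fold change -0.26 ± 0.12, adjusted p = 0.088) and the transcription factor gene Rbpj (log2 fold change 0.10 ± 0.15, adjusted p = 0.64) were not called.

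Of 12 flow-responsive and valve endothelial genes 7 rose (58.3%, against 21.1% of all genes), 1 fell and 4 were not called, with a median of 0.58. Klf2, a transcription factor induced by shear stress, stood at 332 and 294 CPM at E12.5, 447 and 444 CPM at E14.5, 628 and 729.5 CPM at E16.5 and 694 CPM at P3 (log2 fold change 0.97 ± 0.11, adjusted p = 3.9e-07). Its relative Klf4 stood at 40.7 and 43.6 CPM at E12.5, 69 and 87.7 CPM at E14.5, 105 and 120.4 CPM at E16.5 and 311 CPM at P3 (log2 fold change 1.27 ± 0.12, adjusted p = 3e-08). Thbd, the anticoagulant receptor thrombomodulin, stood at 10.2 and 12.4 CPM at E12.5, 22.4 and 32.6 CPM at E14.5, 46.9 and 46.8 CPM at E16.5 and 73.2 CPM at P3 (log2 fold change 1.90 ± 0.16, adjusted p = 1.2e-08). The mechanosensitive channel gene Piezo1 (0.76 ± 0.11), the nitric oxide synthase gene Nos3 (0.40 ± 0.10) and the matrix protease gene Adamts1 (1.29 ± 0.10) rose as well. For Klf2, Klf4 and Thbd the 3 stages did not overlap. Klf2, Klf4 and Fos also respond to handling of cells, and immediate early and heat shock genes moved over the same days, with 10 of 16 higher and 3 lower. Fos stood at 134 and 127 CPM at E12.5, 297 and 258 CPM at E14.5 and 616 and 491 CPM at E16.5 (log2 fold change 1.94 ± 0.12, adjusted p = 3.7e-11), and in Npr3 = 0 barcodes at 282 and 283 CPM at E12.5, 228 and 245 CPM at E14.5 and 761 and 761 CPM at E16.5. The part of tissue dissociation in these rises was not tested.

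Of 16 genes of the endothelial-to-mesenchymal transition 4 rose and 6 fell (37.5%), against 21.1% and 23.1% of all genes. When barcodes with RNA of other cells were left out, only 8 of the list could be tested. Of these, 5 were called higher and 0 lower, against 1201 and 1326 of all 7983 genes tested in that setting. List genes too low to be tested there could not be called lower. The setting therefore cannot decide whether the 6 falls hold. Twist1 (log2 fold change -1.42 ± 0.29, adjusted p = 0.00043), Snai2 (log2 fold change -1.45 ± 0.29, adjusted p = 0.00043) and the homeobox gene Msx1 (log2 fold change -1.98 ± 0.30, adjusted p = 1.6e-05), transcription factors of cushion mesenchyme, fell. Twist1 stood at 12.7 and 18.4 CPM at E12.5, 8.45 and 11.7 CPM at E14.5 and 4.72 and 8.77 CPM at E16.5. Snai2 stood at 8.58 and 9.96 CPM at E12.5, 8.69 and 7.64 CPM at E14.5 and 3.63 and 3.9 CPM at E16.5, and both genes were low at every stage. Postn, a matrix protein of valves, rose and stood at 54.6 and 66.8 CPM at E12.5, 143 and 169 CPM at E14.5, 207 and 221 CPM at E16.5 and 266 CPM at P3 (log2 fold change 1.67 ± 0.11, adjusted p = 1.5e-10), and the transcription factor gene Zeb1 rose too (0.63 ± 0.10). The intermediate filament gene Vim (log2 fold change -0.13 ± 0.09, adjusted p = 0.23) and the cushion proteoglycan gene Vcan (log2 fold change 0.13 ± 0.14, adjusted p = 0.48) were not called.

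The basement membrane list rose in 12 of 18 genes and fell in 1, Hapln1, with a median of 0.73. Col4a1, a chain of basement membrane collagen, stood at 357 and 422 CPM at E12.5, 441 and 486 CPM at E14.5 and 664 and 718 CPM at E16.5 (log2 fold change 0.68 ± 0.10, adjusted p = 2.2e-05). The laminin chain Lama4 stood at 43.8 and 37.9 CPM at E12.5, 62 and 68 CPM at E14.5 and 112 and 112 CPM at E16.5 (log2 fold change 1.31 ± 0.11, adjusted p = 1e-08). Perlecan (Hspg2, 0.78 ± 0.09), nidogen 1 (Nid1, 0.78 ± 0.10), the laminin chains Lamb1 (0.88 ± 0.11) and Lamc1 (1.04 ± 0.12) and the versican-cleaving protease Adamts5 (1.52 ± 0.16) rose too. The list summed to 3240 and 3378 CPM at E12.5, 3679 and 3677 CPM at E14.5, 4783 and 4828 CPM at E16.5 and 5076 CPM at P3, with no overlap between the 3 embryonic stages. In Npr3 = 0 barcodes the sum also grew, from 3168 and 3142 CPM at E12.5 to 5005 CPM in E16.5 replicate 1. In the interaction of population and stage described below, 4 of 20 list genes differed upward and 6 downward, against 10.2% and 14% of all genes. Fn1, fibronectin, was high throughout and not called (log2 fold change 0.04 ± 0.10, adjusted p = 0.79), but stood above the Npr3 = 0 sums in every library.

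Proliferation genes fell. Of 20 DNA replication genes tested 19 were called lower and none higher (median -0.86), and of 20 genes of G2 and mitosis 19 were lower and none higher (median -0.87). With any 1 library left out, the counts lower were 15 to 19 and 13 to 19. The replication list summed to 1019 and 941 CPM at E12.5, 771 and 673 CPM at E14.5, 523 and 581 CPM at E16.5 and 327 CPM at P3. In Npr3 = 0 barcodes it summed to 1028 and 1052 CPM at E12.5, 963 and 936 CPM at E14.5, 817 and 867 CPM at E16.5 and 659 CPM at P3. The endocardial stages did not overlap, and at E16.5 both endocardial libraries lay below both Npr3 = 0 libraries. Single genes with the clearest falls were Dut (log2 fold change -1.34 ± 0.12, adjusted p = 3e-08), Gins2 (-1.31 ± 0.16), Ube2c (log2 fold change -1.42 ± 0.14, adjusted p = 9e-08), Birc5 (-1.16 ± 0.14) and Cdk1 (-1.05 ± 0.12). Without called doublets the falls of Ube2c, Birc5 and Cdk1 were larger, at -2.47, -2.01 and -1.73. Mki67, the usual proliferation marker, was not called (log2 fold change -0.26 ± 0.16, adjusted p = 0.19), and its UMI was found in 2.84% to 7.69% of endocardial barcodes after thinning to 2000 UMIs.

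Cdkn1c, an imprinted inhibitor of the cell cycle (mm10 chr7:143458339-143461050, minus strand), was abundant in the set, and it fell over the same days as the proliferation genes. It stood at 6029 and 5705 CPM at E12.5, 3088 and 3177 CPM at E14.5, 2432 and 2340 CPM at E16.5 and 859.6 CPM at P3 (log2 fold change -1.45 ± 0.08, adjusted p = 3e-11), and in Npr3 = 0 barcodes at 1828 and 1440 CPM at E12.5, 604 and 485 CPM at E14.5, 372 and 393 CPM at E16.5 and 219 CPM at P3. Its level was higher in endocardial barcodes in every library and the stages did not overlap. The antiproliferative genes Btg1 (log2 fold change 0.93 ± 0.10, adjusted p = 4.3e-07) and Btg2 (log2 fold change 0.68 ± 0.12, adjusted p = 8.7e-05) rose.

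**Figure D5:**
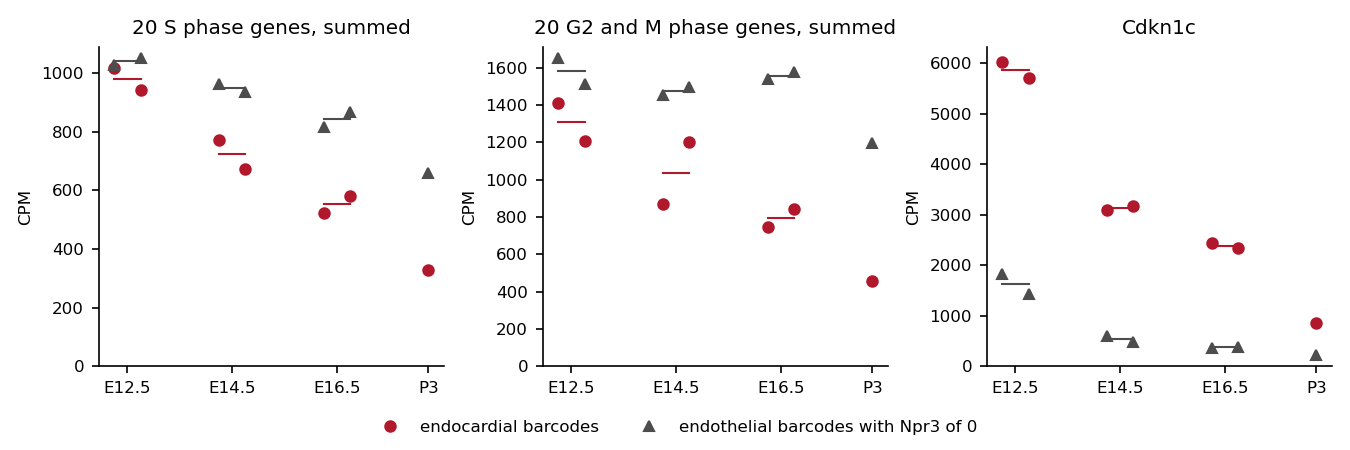
Points give the summed CPM of 20 replication genes, of 20 genes of G2 and mitosis, and of Cdkn1c in endocardial barcodes (circles) and endothelial barcodes without Npr3 (triangles) of each library, with a line at the mean of the 2 libraries of a stage. The replication sum goes from 1019 and 941 CPM at E12.5 to 523 and 581 CPM at E16.5 in endocardial barcodes, and Cdkn1c from 6029 and 5705 to 2432 and 2340 CPM.

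Imprinted growth genes shifted in level, 6 of 11 higher and 3 lower. H19, a noncoding RNA next to Igf2 (mm10 chr7:142575529-142578143, minus strand), stood at 4935 and 5899 CPM at E12.5, 10390 and 10810 CPM at E14.5, 11490 and 11730 CPM at E16.5 and 8340 CPM at P3 (log2 fold change 0.95 ± 0.08, adjusted p = 8.2e-09). Peg3 (log2 fold change 1.22 ± 0.09, adjusted p = 1.2e-09), Dlk1 (log2 fold change 0.96 ± 0.12, adjusted p = 1.6e-06), Plagl1 (log2 fold change 0.73 ± 0.09, adjusted p = 2.7e-06) and the receptor gene Igf2r (log2 fold change 0.68 ± 0.11, adjusted p = 3.3e-05) rose with Igf2 and H19. Dlk1 stood at 149.5 and 138 CPM at E12.5, 162 and 109 CPM at E14.5, 315 and 306 CPM at E16.5 and 60 CPM at P3, so that it was lowest at P3. Peg10 (log2 fold change -1.99 ± 0.36, adjusted p = 0.00013) and Cdkn1c fell, and Meg3 fell as well (log2 fold change -1.22 ± 0.12, adjusted p = 4.7e-08) in all settings but the one that left out barcodes with RNA of other cells. At P3, H19 was at 8340 CPM in endocardial and 1209 CPM in Npr3 = 0 barcodes, and Igf2 at 6413 and 1029 CPM.

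Glycolysis genes fell more often than they rose, 8 of 16 lower and 2 higher. Gapdh stood at 1648 and 1588 CPM at E12.5, 1058 and 1047 CPM at E14.5, 751 and 788 CPM at E16.5 and 673 CPM at P3 (log2 fold change -1.22 ± 0.09, adjusted p = 2.6e-09). Ldha, lactate dehydrogenase, stood at 513 and 528 CPM at E12.5, 360 and 395 CPM at E14.5 and 285 and 299 CPM at E16.5 (log2 fold change -0.98 ± 0.10, adjusted p = 1.5e-07), and pyruvate kinase (Pkm, -0.59 ± 0.09) and enolase (Eno1, -0.42 ± 0.10) fell as well. The hexokinase genes went opposite ways, with Hk1 higher (log2 fold change 0.90 ± 0.15, adjusted p = 5.2e-05) and Hk2 lower (log2 fold change -2.18 ± 0.36, adjusted p = 4.7e-05), the latter at -1.43 without E16.5 replicate 1 and -3.30 without E16.5 replicate 2. For Gapdh the 3 stages did not overlap. The list summed to 3304 CPM in both E12.5 libraries, 2416 and 2523 CPM at E14.5, 2056 and 2177 CPM at E16.5 and 1719 CPM at P3.

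RNA of genes known from other cells was found in the endocardial barcodes and changed over the same days. The summed level of 14 cardiomyocyte genes in endocardial barcodes was 1341 to 2386 CPM in a library, with none of the 14 at 0, against 43201 to 55518 CPM in barcodes of 1 to 100 UMIs that hold free RNA; of these genes 7 rose and 5 fell. Mesenchyme and fibroblast genes summed to 432 and 481 CPM at E12.5 and 964 and 1161 at E16.5, with 6 of 11 higher and 1 lower, and 80.8% to 98.9% of the endocardial barcodes of a library held at least 2 UMIs of them. In barcodes of 1 to 100 UMIs these genes summed to 439 and 579 CPM at E12.5 and 1021 and 861 CPM at E16.5. Dcn, a fibroblast proteoglycan, stood at 6.29 and 8.11 CPM at E12.5, 56.7 and 48.7 CPM at E14.5, 55.2 and 174 CPM at E16.5 and 211 CPM at P3. Pericyte genes summed to 64.7 to 119.9 CPM and epicardial genes to 8.72 to 37.7 CPM, each with 4 of 6 lower and none higher. Erythroid genes, globins among them, summed to 17784 CPM in E16.5 replicate 2, where 3 barcodes held over 1% globin UMIs, and to 583 to 8305 CPM elsewhere. Macrophage genes summed to 8.28 to 103 CPM in the embryo, with the 1 tested gene lower, and to 285 CPM at P3, while 3 to 5 of 6 Schwann and neural crest genes were at 0 and the 1 tested was not called. Of 8 tested erythroid genes 2 rose and 3 fell, and of 13 mitochondrial genes 8 rose and none fell. Xist, expressed from the inactive X chromosome of females, stood at 250.3 and 208 CPM at E12.5, 814 and 653 CPM at E14.5 and 1538 and 1625 CPM at E16.5 and rose, while 4 of 4 Y-linked genes fell. The part of these differences in the stage changes was not tested. When barcodes with at least 2 UMIs of Col1a1, Col3a1 and Postn, at least 2 of C1qa, C1qb and Tyrobp or over 1% globin were left out, 233 of 672 and 289 of 807 endocardial barcodes remained at E12.5, 116 of 301 and 96 of 208 at E14.5, 75 of 211 and 75 of 184 in the E16.5 libraries, with 15 of 88 left at P3. Postn, which rose in the endocardial set, is itself 1 of the genes of this filter. Whether the RNA of these genes came from other cells or from the endocardial cells themselves was not tested. On the barcodes that remained, 2527 genes were called over the span, and the changes of Lyve1, Gpihbp1, Hdc and Nnat moved towards 0, to 2.29, 1.22, 3.01 and -1.49.

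The stage change of endocardial barcodes was then set against that of Npr3 = 0 barcodes of the same libraries, as the interaction of population and stage with a block for the library. Of 11660 genes tested with edgeR, 1192 changed more upward in endocardial barcodes (10.2%) and 1631 more downward (14%). Because the Npr3 = 0 set shifted from mostly Fabp4- and Cd36-poor to mostly Fabp4- and Cd36-rich barcodes, the same test was repeated against each kind, which called 278 upward (2.61%) and 440 downward (4.12%) of 10670 genes with the rich kind and 94 (0.853%) and 183 (1.66%) of 11018 with the poor kind. Of 14 genes of the endocardial identity list 13 differed upward and none downward in the full comparison, 5 and 0 with the rich kind and 2 and 1 with the poor kind. Of 13 coronary genes, 0 and 9 differed in the full comparison, 1 and 7 with the rich kind and, of 10 tested, 0 and 0 with the poor kind. The rich kind held 27 and 24 barcodes at E12.5 and the poor kind 37 and 55 at E16.5, so both repeats rested on smaller sums. Without E16.5 replicate 1 the full comparison called 1829 genes in place of 2823.

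The difference for Nrg1 was called against every comparator. Its level held in endocardial barcodes and went from 38.9 and 29.2 CPM at E12.5 to 1.43 and 1.55 CPM at E16.5 in Npr3 = 0 barcodes (difference 4.33 ± 0.39, adjusted p = 7.3e-07, in log2 units). With the rich kind the difference was 3.84, adjusted p = 0.00015, and with the poor kind 2.90, adjusted p = 0.049. Sox17 differed the other way (difference -5.78 ± 0.44, adjusted p = 1.2e-07), at -4.97, adjusted p = 8.6e-06 with the rich and -3.92, adjusted p = 0.011 with the poor kind: it fell in endocardial barcodes and stood at 24.3 and 29.9 CPM at E12.5, 55.2 and 45.8 CPM at E14.5 and 103 and 105 CPM at E16.5 in Npr3 = 0 barcodes. The sizes of these differences for Sox17 are uncertain, since its endocardial level at E16.5 rests on very few UMIs. Of 12 imprinted genes, 8 differed upward and 1 downward in the full comparison, and 4 and 0 with each kind, of 11 tested with the rich and 12 with the poor kind. Of 20 replication genes 0 and 12 differed in the full comparison, none with the rich kind and 0 and 4 with the poor kind, and of 20 genes of G2 and mitosis 0 and 15, 0 and 9, and 0 and 0. Of 16 glycolysis genes 1 and 4 differed in the full comparison, 8 and 0 with the rich kind and none with the poor kind.

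Endocardial barcodes were not uniform, and groups holding a UMI of a marker were compared with those lacking it, as a description within each library, since barcodes with a given UMI had a higher median of UMIs in all, except for Plvap in E14.5 replicate 2 (10556.5 with and 11545 without) and at P3 (12344 and 14356). Hapln1 was present in 67.4% and 64.1% of endocardial barcodes in the E12.5 libraries, 27.9% and 26.9% in those of E14.5, 4.74% and 6.52% in those of E16.5 and 1.14% at P3. After thinning to 2000 UMIs the shares were 19.3% and 18.2%, 8.64% and 8.65%, 0.474% and 1.63%, and 1.14%, in the same order of embryonic stages, among barcodes chosen at full depth. Of 76 list genes of at least 20 CPM, 16 were higher in barcodes with Hapln1 in all 6 libraries, Hapln1 included, and 5 lower. At E16.5 this rested on 10 and 12 barcodes with Hapln1. Only genes of the lists were compared in these splits, so no share over all genes stands beside the counts. Barcodes with Hapln1 held more Pdgfra (median log2 difference over 6 libraries 2.71), Tbx20 (1.34), Prox1 (1.17), Postn (0.91) and Nfatc1 (0.48), more of the mitotic genes Hmmr (0.95), Plk1 (0.84), Ccnb2 (0.81), Tpx2 (0.76) and Cenpe (0.74), and less Cytl1 (-0.78), Tgfbr3 (-0.40), Npr3 (-0.25) and Plvap (-0.24).

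A UMI of Twist1, Snai1 or Snai2 was present in 24.9% and 27.5% of endocardial barcodes in the E12.5 libraries, 16.3% in both E14.5 libraries, 10.4% and 12% in those of E16.5 and 10.2% at P3. These barcodes held more Dcn (3.28), Col1a1 (2.97), Sox9 (2.67), Lum (2.46) and Pdgfra (2.27) and less Tmem100 (-0.83) and Plvap (-0.53). Like barcodes with Hapln1, they also held more of mitotic genes: Nusap1 (0.87), Birc5 (0.69), Cdk1 (0.65), Mki67 (0.63), Aurka (0.61) and Top2a (0.55). Of 80 list genes of at least 20 CPM, 22 were higher in them in all 6 libraries and 4 lower, genes of the split included. Relative to the minority of barcodes without a Plvap UMI, barcodes with Plvap held less Dcn (-3.40), Lum (-3.02), Twist1 (-2.70), Bmp4 (-2.39), Hey2 (-2.34) and Vcan (-2.29), and more Tmem100 (2.03), Adgrg6 (1.88), Tgfbr3 (1.79) and Col4a1 (1.41). That minority was small: 199 of 211 and 168 of 184 endocardial barcodes held Plvap at E16.5, so few without it remained there. A Postn UMI was present in 49.1% and 45.0% of endocardial barcodes in the E12.5 libraries, 59.8% and 55.3% in those of E14.5, 67.3% and 64.7% in those of E16.5 and 73.9% at P3, and such barcodes held more of 19 of 71 list genes in all 6 libraries, Postn included, and less of 5. Among those higher were the mitotic genes Mki67 (0.86), Cenpf (0.84) and Ccna2 (0.75) and the matrix genes Col1a2 (0.78), Col3a1 (0.74) and Col4a1 (0.43), and among those lower Edn1 (-0.81), Mfng (-0.75) and Klf2 (-0.52).

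At P3 the 88 endocardial barcodes carried the highest levels of several genes that had risen before birth, Igf2, Eng, Cytl1, Edn1 and Thbd among them, and Npr3 itself stood at 619 CPM. The P3 matrix held 2 barcode suffixes, with 62 endocardial of 360 endothelial barcodes (17.2%) under one and 26 of 284 (9.15%) under the other. Their sums differed in Npr3 (483 and 979.8 CPM) and in the matrix protein gene Mgp (3152 and 1705 CPM) but were near each other for Plvap (421 and 375 CPM), Tmem100 (279 and 261 CPM) and Igf2 (6430 and 6370 CPM). The suffixes were not tied to the 2 sample records, so P3 was used as 1 sample and the spread between P3 samples was not tested.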

How the data were processed

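Single-cell suspensions of wild-type C57Bl/6J mouse hearts were sequenced on the 10x Genomics platform. The deposited files are matrices of whole-number UMI counts per gene and barcode, made by the authors with Cell Ranger against the mouse build mm10; the submitters' processing notes name Cell Ranger 2.1.1 and Seurat 3.1.1, while the file headers name Cell Ranger 3.1.0 (3.0.0 for P3). Labels and methods differ on the dissociation enzyme and the chemistry. How many hearts entered a library is not given in the sources used here. Barcode and gene tables deposited by the authors with each matrix hold names (other), and the second record of each pooled matrix was not used on its own.

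Members, gene lists and the rule for named genes were chosen with earlier results of these data known. Barcodes were gated as the results state, with no doublets removed. UMIs were summed per library and population, and levels are sums per 1000000 UMIs (CPM), without TMM scaling. As the values are 3′ UMI counts, levels were not compared between genes. Stage changes among endocardial sums of 6 libraries were tested with edgeR 4.0.16 (quasi-likelihood, TMM factors, filterByExpr, 10593 genes, R 4.3.3), and the interaction of population and stage on 12 sums with a library block (11660 genes). The 7 genes of the gate were never tested. Both scripts were tested on simulated data. Scrublet in scanpy 1.11.5 marked doublets, DESeq2 1.42.0 served as an alternative, and shares carry exact binomial 95% intervals. Thinning drew 2000 UMIs from each barcode. Gene positions are from GENCODE M21 (mm10).

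The genes named are genes of the lists that the text describes, the 12 called genes with the largest rise and the 12 with the largest fall over the span (at least 20 CPM at the higher stage, libraries of the stages not overlapping; 6 each way for the interaction and for neighbouring stages), and the genes with the largest median ratio to Npr3 = 0 barcodes (at least 50 CPM, same sign in 6 of 6 libraries), leaving out gate, sex-linked, mitochondrial and other-cell genes. Not every gene that met the rule is reported here. Mgp was singled out after its values were seen. Alternatives covered normalization, low-count filter, test, each library left out, Npr3, UMI and mitochondrial limits, thinning, doublets, RNA of other cells, globin and the make-up of the Npr3 = 0 set, the last 2 of which were chosen after seeing the data. The embryo library of E8.5 replicate 1 was not analysed here.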

Additional observations from a re-analysis of the deposited data

Results flagged for a closer look

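Each of the following 12 genes changed differently with stage in endocardial and in Npr3 = 0 endothelial barcodes, as tested by the interaction of population and stage with edgeR; they are the 6 genes with the largest upward and the 6 with the largest downward difference. The make-up of the Npr3 = 0 set changed over the same stages, and its part in these differences was not tested beyond the 2 repeats with its rich and poor kinds.

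Among the upward differences, Nrg1 (adjusted p = 7.27e-07) and 6330403K07Rik (adjusted p = 1.1e-08) were also called with both kinds. 6330403K07Rik stood at 27.1 and 29 CPM at E12.5, 30.4 and 31.8 CPM at E14.5 and 32.7 and 36.5 CPM at E16.5 in endocardial barcodes. 6330403K07Rik levels in Npr3 = 0 barcodes were 62.3 and 57 CPM at E12.5, 10.8 and 10.9 CPM at E14.5 and 4.28 and 5.28 CPM at E16.5, and the difference was 2.31, adjusted p = 0.017 with the rich kind and 1.92, adjusted p = 0.0055 with the poor kind. Col6a3 (adjusted p = 1.7e-08) stood at 8.03 and 12.1 CPM at E12.5, 2.12 and 2.14 CPM at E14.5 and 6.89 and 9.93 CPM at E16.5 in Npr3 = 0 barcodes. Shisa2 (adjusted p = 6.52e-07) stood at 5.36 and 3.03 CPM at E12.5, 3.86 and 6.43 CPM at E14.5 and 9.45 and 10.2 CPM at E16.5 in endocardial barcodes. Shisa2 levels in Npr3 = 0 barcodes were 22.9 and 17.8 CPM at E12.5, 1.27 and 2.37 CPM at E14.5 and 1.9 and 1.55 CPM at E16.5. Col9a1 (adjusted p = 0.00613) stood at 5.08 and 6.62 CPM at E12.5, 0.724 and 2.81 CPM at E14.5 and 0.363 and 1.95 CPM at E16.5 in endocardial barcodes. Col9a1 levels in Npr3 = 0 barcodes were 27.9 and 30.7 CPM at E12.5, 2.33 and 3.32 CPM at E14.5 and 0 and 0.31 CPM at E16.5. Inhba, which encodes an activin subunit (adjusted p = 2.89e-06), stood at 2.57 and 4.58 CPM at E12.5, 3.86 and 9.65 CPM at E14.5 and 16.7 and 30.7 CPM at E16.5 in endocardial barcodes. Inhba levels in Npr3 = 0 barcodes were 34.4 and 30.2 CPM at E12.5, 3.39 and 5.7 CPM at E14.5 and 9.27 and 3.1 CPM at E16.5, and the difference was not called with the rich kind (adjusted p = 0.64).

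Among the downward differences, Sox17 (adjusted p = 1.21e-07) was also called with both kinds. Tmem255a (adjusted p = 6.32e-06) stood at 1 and 1.24 CPM at E12.5, 1.21 and 1.61 CPM at E14.5 and 0.363 and 0 CPM at E16.5 in endocardial barcodes. Tmem255a levels in Npr3 = 0 barcodes were 6.81 and 7.08 CPM at E12.5, 79.8 and 66.9 CPM at E14.5 and 93.6 and 93.1 CPM at E16.5. Sez6l2 (adjusted p = 6.51e-05) stood at 0.429 and 0.433 CPM at E12.5, 0.483 and 1.21 CPM at E14.5 and 0.363 and 0.975 CPM at E16.5 in endocardial barcodes. Sez6l2 levels in Npr3 = 0 barcodes were 0.175 and 0.173 CPM at E12.5, 7.83 and 5.46 CPM at E14.5 and 30.2 and 36 CPM at E16.5. The other 3 were at 0 in both endocardial libraries of E16.5, so no fold is given. Apln (adjusted p = 0.00674) stood at 0.286 and 0.247 CPM at E12.5, 0.483 and 0.804 CPM at E14.5 and 0 and 0 CPM at E16.5 in endocardial barcodes. Apln levels in Npr3 = 0 barcodes were 4.71 and 7.94 CPM at E12.5, 75.3 and 84 CPM at E14.5 and 51.6 and 56.2 CPM at E16.5. Dach1 (adjusted p = 4.72e-05) stood at 0.858 and 0.804 CPM at E12.5, 0.724 and 0.402 CPM at E14.5 and 0 and 0 CPM at E16.5 in endocardial barcodes. Dach1 levels in Npr3 = 0 barcodes were 2.27 and 2.07 CPM at E12.5, 13.8 and 15.4 CPM at E14.5 and 26.6 and 27.6 CPM at E16.5. 8430408G22Rik (adjusted p = 0.000258) stood at 0.858 and 0.0619 CPM at E12.5, 0.241 and 0 CPM at E14.5 and 0 and 0 CPM at E16.5 in endocardial barcodes. 8430408G22Rik levels in Npr3 = 0 barcodes were 6.29 and 5 CPM at E12.5, 80 and 52 CPM at E14.5 and 253 and 244 CPM at E16.5.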

How the results depend on the processing

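The counts of called genes fell by over 1.5 times with DESeq2 and after thinning in all 4 comparisons, without barcodes holding RNA of other cells in the 3 stage comparisons, and with some libraries left out: either E14.5 library for E14.5 against E12.5, any E14.5 or E16.5 library for E16.5 against E14.5, and E16.5 replicate 1 for the interaction. For E14.5 against E12.5 they were 2006 with DESeq2, 979 after thinning, 1784 without barcodes holding RNA of other cells and 2041 to 3785 with 1 library left out, against 3707. For E16.5 against E14.5 they were 572, 282, 526 and 454 to 1216, against 1122. Over the span they were 3057, 1563, 2527 and 3279 to 4617, against 4685. For the interaction they were 1341 with DESeq2, 602 after thinning, 718 and 277 with the rich and the poor kind of Npr3 = 0 barcodes and 1829 to 2809 with 1 library left out, against 2823. Thinning and the removal of barcodes leave fewer UMIs to test. The share of endothelial barcodes that were endocardial moved beyond its counting interval with a limit of at least 2 Npr3 UMIs, to 51.8%, 52.2%, 41.9%, 29.2%, 40.04% and 34.0% in the 6 embryonic libraries in order of stage and replicate, after thinning before the gate, to 26.5%, 26.9%, 25.7%, 16.9%, 24.7% and 27.0% in the same order, and without the Fabp4 and Cd36 limit, to 57.1% in E14.5 replicate 1, 51.4% in E16.5 replicate 1 and 41.0% at P3. Without barcodes holding RNA of other cells, a filter set on endocardial barcodes only, these were 23.6%, 25.4%, 20.1%, 18.8%, 16.1% and 17.4% of all endothelial barcodes in the same order and 2.33% at P3. Replicate numbers did not pair the samples: deviations of same-numbered libraries correlated at 0.144, -0.003 and 0.026 over 5556 genes. With a replicate block 4011, 1315 and 4808 genes were called in the 3 stage comparisons, and without the library block 2308 in the interaction. Of 112 called changes of named genes, 95 could be compared after thinning and 104 without RNA of other cells. Among those compared, Plvap lost its call in 3 settings and Meg3 and Nfatc1 in 1 each, and the cause was not tested. Fold changes moved by over 1.5 times for 16 named genes without RNA of other cells. Of these, 4 moved towards 0 and 12 away from it, to log2 values of -2.98 for Cd24a, -2.79 for Cldn5, -2.91 for Col26a1, 4.65 for Cytl1, 1.66 for Dlk1, 2.09 for Edn1, -2.17 for Gins2, -2.17 for Mnda, 4.93 for Ndrg1, -2.62 for Peg10 and -2.81 for Vegfc over the span and 6.67 for Hspa1a at E14.5 against E12.5. After thinning 8 moved, of which Asb4, Hspa1a (4.82) and Wnt4 (-1.18 for E16.5 against E14.5) moved towards 0 and Hmga2, Col26a1 (-3.79), Edn1 (2.05), Hdc (4.78) and Nrp2 (2.39) away from it. Without called doublets 5 moved away from 0, Birc5, Cdk1, Ube2c, Nnat (-3.31) and Pcp4 (-5.03), and with at least 2 Npr3 UMIs 3 did, Asb4, Hapln1 (-4.33) and Ndrg1 (4.96). Genes under a few CPM at E16.5 rest on few UMIs, and how small a difference could be detected there was not tested.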

Other observations

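Genes of antigen presentation and interferon response were mostly called higher after E14.5. Of 9 tested, 4 fell and none rose between E12.5 and E14.5, and 8 rose and none fell between E14.5 and E16.5 (against 6% and 4.59% of all genes), which left 6 higher and 1 lower over the span. Without barcodes holding RNA of other cells, 4 of 7 tested rose after E14.5 and 0 fell, and 3 rose and 1 fell over the span. In the interaction of population and stage, 0 of 12 differed upward and 5 downward in endocardial barcodes, against 10.2% and 14% of all genes. Ifitm3, an interferon-induced membrane protein, stood at 192 and 163 CPM at E12.5, 193 and 164 CPM at E14.5, 339 and 339.7 CPM at E16.5 and 563 CPM at P3 (log2 fold change 0.79 ± 0.10, adjusted p = 2.8e-06). The class I gene H2-D1 stood at 44.4 and 44.7 CPM at E12.5, 41.5 and 40.2 CPM at E14.5, 67.6 and 74.1 CPM at E16.5 and 233 CPM at P3 (log2 fold change 0.52 ± 0.11, adjusted p = 0.00075), with several near-identical relatives that could share its reads. The antiviral gene Bst2 stood at 171 and 139.5 CPM at E12.5, 157 and 136 CPM at E14.5, 259.8 and 231 CPM at E16.5 and 266 CPM at P3 (log2 fold change 0.52 ± 0.11, adjusted p = 0.00065), and Tap1, a subunit of the peptide transporter that loads class I molecules, at 0.643 and 0.557 CPM at E12.5, 0.724 and 0.804 CPM at E14.5, 4.36 and 5.36 CPM at E16.5 and 8.22 CPM at P3 (log2 fold change 2.83 ± 0.49, adjusted p = 7.9e-05). In the Npr3 = 0 barcodes Ifitm3 stood at 124 and 105 CPM at E12.5, 160.2 and 144 CPM at E14.5, 455 and 369 CPM at E16.5 and 1114 CPM at P3, so that the level of E16.5 was above that of E12.5 in both populations. Adjusted p-values are from edgeR.

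Genes of fatty acid uptake and oxidation stood near all genes in their counts, with 3 of 13 higher (23.1%) and 2 lower (15.4%) over the span, against 21.1% and 23.1% of all genes. Fabp3, the heart-type fatty acid carrier, stood at 19 and 26.7 CPM at E12.5, 24.4 and 27.8 CPM at E14.5, 49.8 and 44.8 CPM at E16.5 and 213 CPM at P3 (log2 fold change 0.91 ± 0.16, adjusted p = 8.5e-05), Lpl and Fabp5 rose as well, and the oxidation gene Hadha stood at 71 and 67.8 CPM at E12.5, 75.1 and 72.4 CPM at E14.5, 86.1 and 76.5 CPM at E16.5 and 90.5 CPM at P3 and was not called (log2 fold change 0.09 ± 0.11, adjusted p = 0.52). The carnitine transferase gene Cpt1a stood at 8.08 and 8.48 CPM at E12.5, 15.7 and 11.3 CPM at E14.5, 6.54 and 10.7 CPM at E16.5 and 42 CPM at P3, higher at P3 than in any embryonic library, without a test.

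The prohormone-processing gene Cpe (2.19 ± 0.11), Apoc1 (1.10 ± 0.11) and Prr15 (1.86 ± 0.15), 3 genes that separated endocardial from Npr3 = 0 barcodes, also rose over the span, whereas Mnda (-1.07 ± 0.12) and Ifi205 (-0.81 ± 0.13), which separated them too, fell. Mnda stood at 98.4 and 102 CPM at E12.5, 79.9 and 82.4 CPM at E14.5, 60.3 and 43.4 CPM at E16.5 and 6.58 CPM at P3.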
